A study of Mus musculus with 6 samples.

Results

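The 10 genes described here encode the enzymes and regulators that make fatty acids from citrate and put in their first double bond: Scd1, Scd2, Fasn, Acaca, Acacb, Srebf1, Elovl6, Acly, Thrsp and Me1. They were chosen by name from the platform annotation, which gives 25 probe sets for them among 18193 genes with a probe set of 1 symbol. Each gene is represented by the probe set whose mean log2 signal was highest. All 10 lay above the signal filter, a mean log2 signal over the median of the non-control probe sets, as did 11526 genes in all. Elovl6 was the dimmest, with a mean log2 signal of 5.94 against a filter of 5.88.

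RNA from the gastrocnemius of male C57BL/6J mice, pooled within each group, was hybridised to 6 arrays, 1 for each of 3 diets at each of 2 fasting times. The diets started at 6 weeks of age and lasted 15 weeks, while the label of every sample gives an age of 21 months; no result uses the age. The Control diet (D12450B) held 10 kcal% fat and the HF diet (D12492) 60 kcal% fat. To D12492 the HF+SFC+ALA diet added the iron salt sodium ferrous citrate (SFC) at 0.023% of its weight and 0.2% of the heme precursor 5-aminolevulinic acid in its phosphate form (ALA). Mice of all diets were fasted for 4 h or for 24 h. There was 1 pool per combination, so p-values rest in part on the spread between pools that the additive model leaves (2 residual degrees of freedom). The fit moves the spread of each gene toward that of genes of like signal (7.27 prior degrees of freedom). Each SE and p-value thus rests largely on other genes, and so few arrays limit the precision. How many animals made up a pool is not stated in the labels. All 14 skeletal muscle fibre markers were above the filter in these pools, Acta1, Ckm and Myh4 among them.

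De novo lipogenesis turns surplus carbohydrate into fat. Acly splits citrate into acetyl-CoA, Acaca and Acacb carboxylate it to malonyl-CoA, Fasn joins these units into palmitate with NADPH that Me1 helps to supply, Elovl6 lengthens palmitate, and the desaturases Scd1 and Scd2 make monounsaturated fatty acids. Srebf1 encodes the transcription factor SREBP-1, which drives most of these genes, and Thrsp encodes Spot 14, a small protein of lipogenic tissues. In liver and fat the program is known to be low in fasting and high after a carbohydrate meal. Muscle makes little fat, and the malonyl-CoA made there by Acacb is best known for holding back the entry of fatty acids into mitochondria.

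Promoter sequences are shown for 3 members, Fasn, Srebf1 and Thrsp, because their signals were lower after 24 h than after 4 h of fasting in every diet, and lower in the HF+SFC+ALA than in the HF pool at both times. RefSeq windows on GRCm38.p6, from 250 bases before the start site to 50 bases from it on, matched 8 of the 10 members (all but Scd1 and Scd2), 11 windows in all. Both strands were searched for the core of the sterol regulatory element (TCACNCCAC), the E-box (CACGTG), the NF-Y box (CCAAT) and the Sp1 box (GGGCGG). Capitals mark every match, read along the strand of the gene. Srebf1 has 3 windows, of which the one with both NF-Y and Sp1 letters is shown, a choice made after the search.
Fasn, chr11:120824498-120824797, minus strand: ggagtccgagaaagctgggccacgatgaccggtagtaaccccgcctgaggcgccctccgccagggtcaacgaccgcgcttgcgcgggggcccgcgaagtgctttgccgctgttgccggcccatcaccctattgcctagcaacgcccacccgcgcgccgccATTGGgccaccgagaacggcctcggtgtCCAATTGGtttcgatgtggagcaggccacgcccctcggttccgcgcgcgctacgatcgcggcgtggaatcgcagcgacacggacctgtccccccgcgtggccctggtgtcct
Srebf1, chr11:60210422-60210721, minus strand: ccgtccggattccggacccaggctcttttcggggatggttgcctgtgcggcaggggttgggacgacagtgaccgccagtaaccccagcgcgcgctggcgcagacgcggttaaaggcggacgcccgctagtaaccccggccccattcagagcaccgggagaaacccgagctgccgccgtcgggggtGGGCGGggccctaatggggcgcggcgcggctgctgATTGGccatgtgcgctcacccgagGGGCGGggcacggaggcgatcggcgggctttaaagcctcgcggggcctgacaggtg
Thrsp, chr7:97417501-97417800, minus strand: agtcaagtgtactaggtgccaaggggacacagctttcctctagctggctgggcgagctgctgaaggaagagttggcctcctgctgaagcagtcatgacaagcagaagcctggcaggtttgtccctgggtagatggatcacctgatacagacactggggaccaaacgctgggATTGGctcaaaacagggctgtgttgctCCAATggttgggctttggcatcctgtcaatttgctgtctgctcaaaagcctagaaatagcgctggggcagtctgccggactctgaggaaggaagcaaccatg
Fasn holds 3 NF-Y boxes, from 90 to 86, 62 to 58 and 59 to 55 bases before the start site, of which the last pair lie on opposite strands and overlap. Thrsp holds 2, from 79 to 75 and 52 to 48 bases before it. The Srebf1 window holds 1 NF-Y box, from 30 to 26 bases before the start site, between Sp1 boxes that begin 65 and 6 bases before it. NF-Y letters occurred in 7 of the 11 member windows and in 37.4% of all 32851 windows of this length, and Sp1 letters in 4 of 11 and in 35.7%. Neither the exact letters of the sterol element core (1.24% of all windows) nor those of the E-box (7.15%) were found in the 11 windows. Variants of these letters were not searched for, so such sites may be present.

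The MAS5 signals of the members ranged over the 6 pools from 2.99-fold for Scd1 (2081 to 6231) and 2.26-fold for Scd2 down to 1.25-fold for Acly, with Me1 the narrowest. Signals of different probe sets are not compared with each other, since probes differ in brightness.

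**Figure D1:**
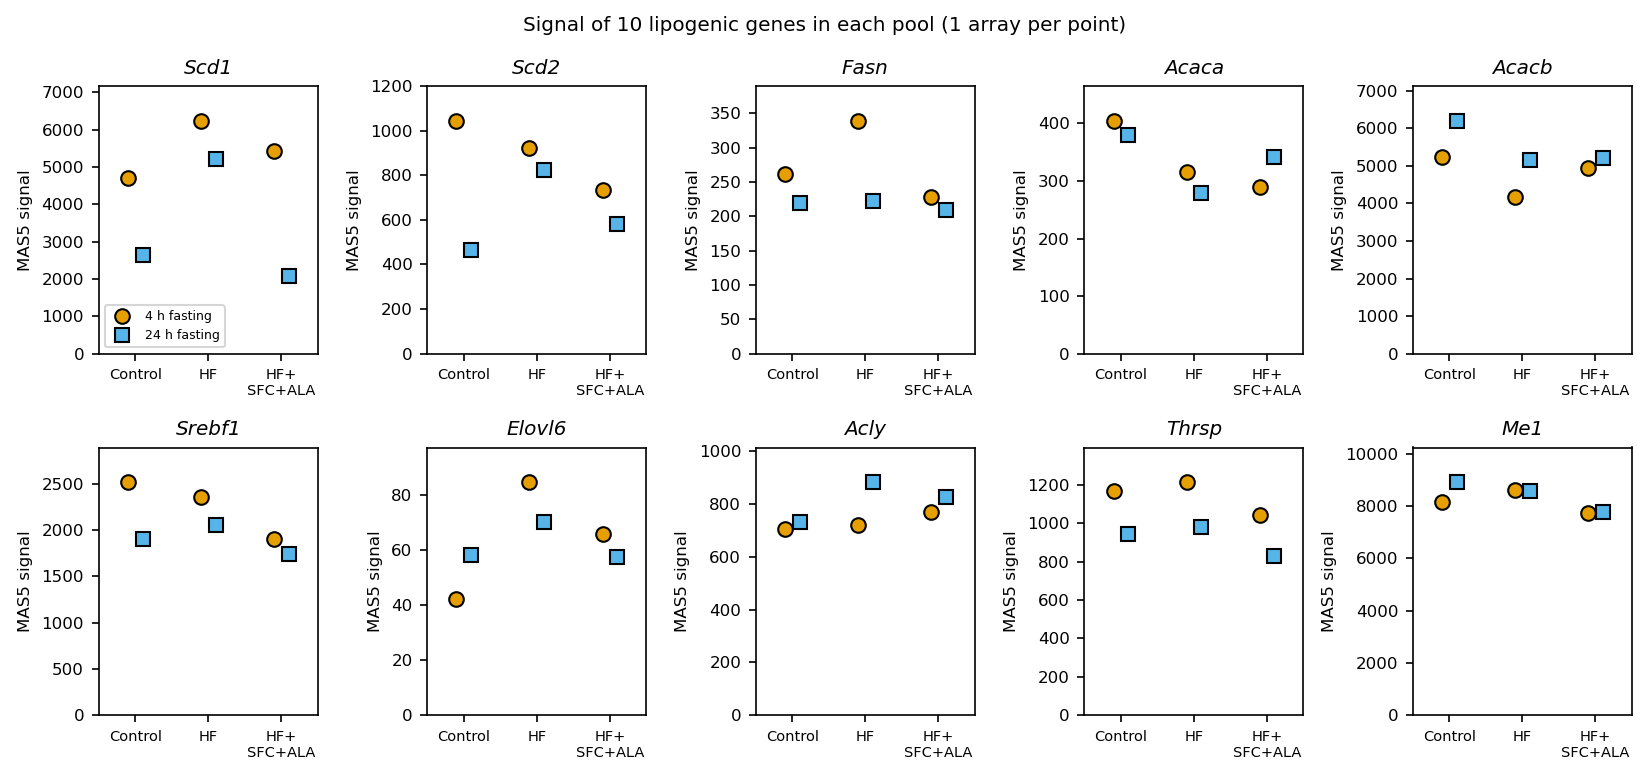
MAS5 signal (vertical axis, linear, from 0) of the 10 genes in the 3 diets after 4 h (circles) and 24 h (squares) of fasting; each point is 1 array of pooled RNA. Scd1 is lowest in the HF+SFC+ALA pool at 24 h (2081) and highest in the HF pool at 4 h (6231), while Me1 stays between 7745 and 8911.

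Fasting was compared first, 24 h against 4 h, with diet in the model. Scd1, the main stearoyl-CoA desaturase, fell 1.77-fold after 24 h. Fasn, Srebf1, Thrsp and Scd2 had lower signals at 24 h in all 3 diets without passing the test, and Acacb and Acly had higher ones. Thus 1 of 10 members passed (limma with Benjamini-Hochberg adjustment at 0.05), and it was lower, beside 0.92% of all 11526 genes called lower, 1.49% called higher and 2.41% called in either direction. An unadjusted p under 0.05 was reached by 5 members, Scd1, Scd2, Acacb, Srebf1 and Thrsp, and by 17.7% of all genes. Of the 10, 5 were lower in every diet (18.3% of all genes) and 2 higher in every diet (21% of all genes). The median difference of the members was -0.12 on the log2 scale, beside 0.01 over all genes.

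The desaturases showed the widest differences. Scd1 signals at 4 h were 4706, 6231 and 5426 in Control, HF and HF+SFC+ALA, and at 24 h 2641, 5205 and 2081. Each diet was lower at 24 h, yet the groups overlapped, since the HF pool at 24 h exceeded the Control pool at 4 h. The log2 difference was -0.83 ± 0.16 (SE of the fit over 6 pools, adjusted p = 0.0390), with Control at -0.83, HF at -0.26 and HF+SFC+ALA at -1.38. That SE leans on other genes, and it was 0.23 without the intensity trend. The call was lost without either HF+SFC+ALA pool, where the difference was -0.55, and under 6 other settings, with an adjusted p of up to 0.480. Fits that leave out 1 pool have 1 residual degree of freedom, so little weight can be put on their p-values. Scd2, a desaturase best known from brain and fat, had signals of 1044, 922 and 734 at 4 h and 463, 825 and 581 at 24 h in the same order of diets. The Control pool carried most of its difference (-1.17, against -0.16 in HF and -0.34 in HF+SFC+ALA), and the fit gave -0.56 ± 0.17 (adjusted p = 0.136). Scd1 and Scd2 lie in the cluster of Scd genes on chromosome 19 with Scd3 and Scd4, and the files do not show how far probes of one can bind RNA of another.

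By its brightest probe set Thrsp, by contrast, differed by nearly the same amount in each diet. Its signals were 1169, 1214 and 1042 at 4 h and 946, 981 and 831 at 24 h in Control, HF and HF+SFC+ALA. Every pool at 24 h lay below every pool at 4 h, which held for 2 of 10 members (Thrsp and Fasn) and for 8.36% of all genes, while no member had the reverse order (10.6% of all genes). The differences within the diets were -0.31, -0.31 and -0.33, and the fit gave -0.31 ± 0.09 (adjusted p = 0.0996). Srebf1 signals were 2516, 2358 and 1902 at 4 h against 1899.9, 2055 and 1747 at 24 h. The pools at the 2 times overlapped, because the HF pool at 24 h exceeded the HF+SFC+ALA pool at 4 h, and the difference was -0.24 ± 0.08 (adjusted p = 0.167). Fasn signals were 261, 339 and 228 at 4 h and 219, 223 and 209 at 24 h. The HF diet had the widest gap (-0.61, against -0.25 in Control and -0.13 in HF+SFC+ALA), and the fit gave -0.33 ± 0.16 (adjusted p = 0.344).

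The carboxylases and the enzymes that supply precursors did not share this direction. Acacb, the muscle isoform at the mitochondrial membrane, had signals of 5229.7, 4166 and 4934 at 4 h and 6202, 5172 and 5218 at 24 h. It was higher at 24 h in each diet, by 0.25, 0.31 and 0.08, and the fit gave 0.21 ± 0.07 (adjusted p = 0.161). Acaca, the cytosolic isoform, had a difference of -0.01 ± 0.14 (95% interval -0.33 to 0.31), with pairs of -0.09, -0.17 and 0.24. Acly signals were 705, 719 and 770.0 at 4 h and 732, 882 and 826 at 24 h, a difference of 0.15 ± 0.10 (adjusted p = 0.484). Me1, the malic enzyme, had signals of 8161, 8604 and 7745 at 4 h and 8911, 8573 and 7778 at 24 h, and stood at 0.04 ± 0.06 (95% interval -0.10 to 0.19). Elovl6 signals were 42.0, 84.5 and 65.6 at 4 h and 58.1, 70.1 and 57.3 at 24 h. Their estimate of 0.00 ± 0.34 was the least precise of the 10 and joined a higher Control pair (0.47) with lower HF and HF+SFC+ALA pairs (-0.27 and -0.19). Whether the response to fasting differs between diets could not be tested for any member, since each diet had 1 pool per time.

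**Figure D2:**
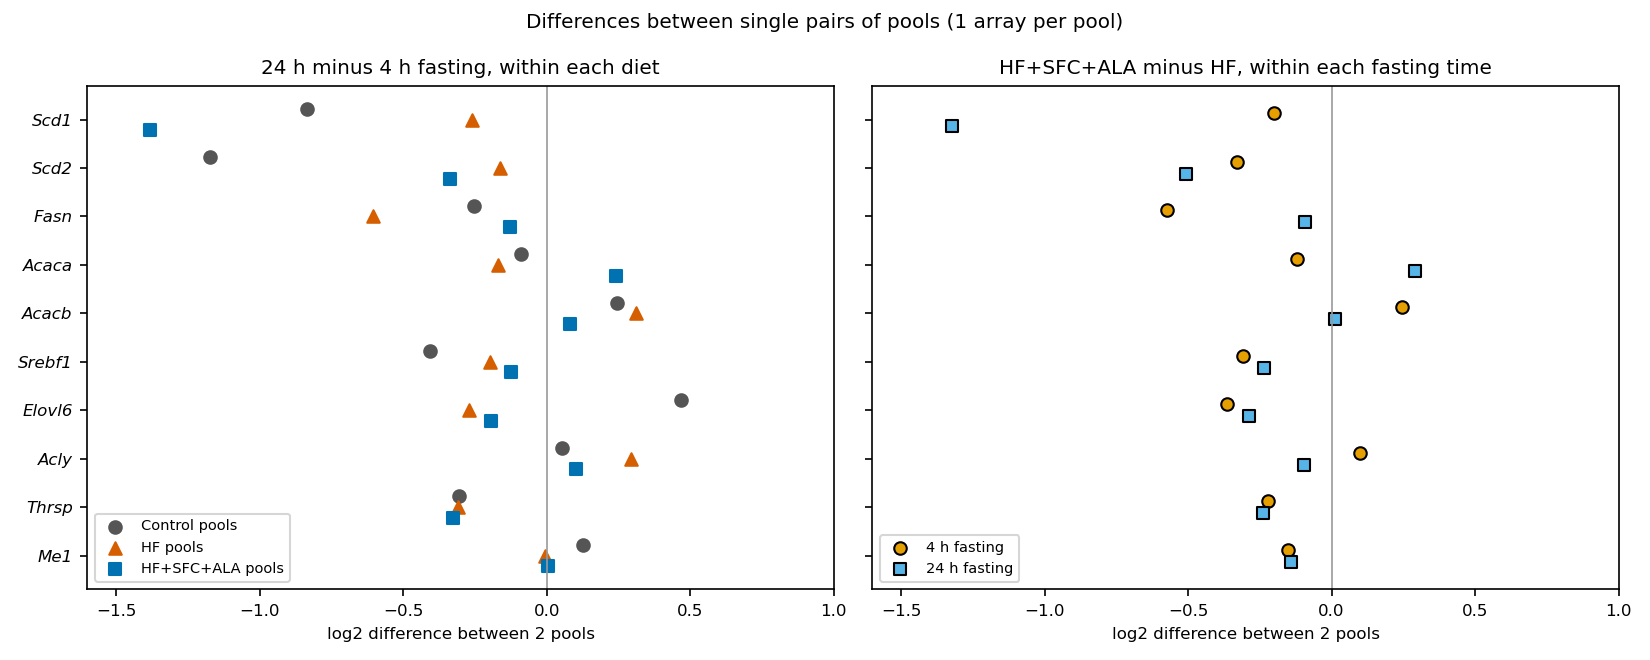
Log2 differences between single pairs of pools for the 10 genes; left, 24 h minus 4 h of fasting in Control (circles), HF (triangles) and HF+SFC+ALA (squares); right, HF+SFC+ALA minus HF at 4 h (circles) and 24 h (squares), 1 array per pool. The 3 Thrsp points on the left lie together between -0.33 and -0.31, whereas those of Scd1 spread from -1.38 to -0.26; on the right 7 genes lie below 0 at both times.

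High-fat feeding was then set against Control, with fasting time in the model. Scd1 and Elovl6 had higher signals in both HF pools than in both Control pools, and the carboxylase genes Acaca and Acacb had lower ones. None of these passed: 0 of 10 members were called in limma, beside 0.885% of all genes (0.564% higher and 0.321% lower), and 3 had an unadjusted p under 0.05 (Scd1, Acacb and Acaca) beside 14.7% of all genes. The HF and Control pools did not overlap for 2 members on the higher side (19.7% of all genes) and 2 on the lower side (18.9% of all genes). In both fasting pairs 5 members were higher (Scd1, Fasn, Elovl6, Acly and Thrsp; 29.4% of all genes) and 2 lower (Acaca and Acacb; 30.6% of all genes). The median difference of the members was 0.10 and that of all genes 0.00.

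Scd1 was 1.62-fold higher in HF (0.69 ± 0.20, adjusted p = 0.169), with pairs of 0.40 at 4 h and 0.98 at 24 h. It passed when a Control pool was left out (0.70, adjusted p = 2.64e-05 for 4 h; 0.69, adjusted p = 0.000125 for 24 h) or the 4 h HF pool (1.12, adjusted p = 0.0113). When the 24 h HF pool was left out, its difference was 0.27 (adjusted p = 0.572). Each of these fits has 1 residual degree of freedom. Scd2 stood at -0.18 at 4 h and 0.83 at 24 h, for a fitted 0.33 ± 0.21 (adjusted p = 0.508), and passed without the Control pool at 4 h (0.79, adjusted p = 0.00148). Elovl6, the elongase, had signals of 84.5 and 70.1 in HF against 42.0 and 58.1 in Control at 4 h and 24 h, a difference of 0.64 ± 0.42 (95% interval -0.30 to 1.58). Fasn was 0.37 higher at 4 h and 0.02 at 24 h (0.20 ± 0.20), and when the 4 h HF pool was left out its difference turned to -0.01.

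Both acetyl-CoA carboxylase genes had lower signals on the high-fat diet. Acaca signals were 315 and 279.7 in HF against 405 and 380.0 in Control, 1.32-fold lower (-0.40 ± 0.17, adjusted p = 0.334). Acacb was 1.23-fold lower (-0.30 ± 0.09, adjusted p = 0.170), with pairs of -0.33 at 4 h and -0.26 at 24 h. The HF+SFC+ALA pools were below Control as well: Acaca stood there at 289.6 and 342 and Acacb at 4934 and 5218. Acacb in Control stood at 5229.7 and 6202, so its 24 h HF+SFC+ALA pool was barely below the 4 h Control pool. So all 4 high-fat pools lay below both Control pools for these 2 members and above them for none, a comparison made after the values were seen; 10.7% of all genes had their 4 high-fat pools below and 10.4% above. Srebf1 (0.01 ± 0.10, 95% interval -0.22 to 0.24), Me1 (0.01 ± 0.08, -0.17 to 0.19), Thrsp (0.05 ± 0.10, -0.18 to 0.29) and Acly (0.15 ± 0.12, -0.12 to 0.42) had intervals on both sides of 0.

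The supplement was assessed within the high-fat diet, HF+SFC+ALA against HF. Scd1 was 1.69-fold lower with the supplement and Scd2 1.34-fold, and Fasn, Srebf1, Thrsp, Elovl6 and Me1 were also lower at both fasting times. Thus 7 of 10 members were lower in both pairs, beside 26.7% of all genes, and 1, Acacb, was higher in both, beside 24% of all genes. These counts use the brightest probe set of a gene, and the other Me1 probe set was higher in both pairs (0.004 and 0.06). No member passed in limma, and neither did any other gene (0% called); 2 members, Scd1 and Srebf1, had an unadjusted p under 0.05 beside 5.08% of all genes. The median difference of the members was -0.25, and 0.00 over all genes. This comparison shares its HF pools with the previous one, so a high HF pool moves both.

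For Scd1 the difference was -0.76 ± 0.20 (adjusted p = 0.593), with pairs of -0.20 at 4 h and -1.32 at 24 h. Against Control the HF+SFC+ALA pools stood at 0.21 at 4 h and -0.34 at 24 h, so they lay on either side of the Control pools. Without the Control pool at 4 h or at 24 h, which changes only the estimate of the spread, the same -0.76 passed. Its SE was then 0.10 in place of 0.20. Each of these fits has 1 residual degree of freedom, so little weight can be put on that call. The difference was -0.34 when a 24 h pool was left out (adjusted p = 0.999 for HF+SFC+ALA and 0.705 for HF), and -1.18 or -1.19 when the 4 h pool of HF+SFC+ALA or of HF was (adjusted p = 0.214 and 0.0530). Srebf1 was 1.21-fold lower (-0.27 ± 0.10, adjusted p = 0.875), with pairs of -0.31 and -0.23. The HF+SFC+ALA pools were below both HF pools for Srebf1, Scd2, Elovl6 and Me1, 4 of 10 members, beside 15.8% of all genes, and above them for none (13.1% of all genes). The other Me1 probe set had the reverse order, with HF at 7452 and 7277 and HF+SFC+ALA at 7471 and 7575. Thrsp pairs stood at -0.22 and -0.24 (-0.23 ± 0.10, adjusted p = 0.970), and Fasn pairs at -0.57 and -0.09 (-0.33 ± 0.20, adjusted p = 0.970). Scd2 stood at -0.42 ± 0.21 and Me1 at -0.15 ± 0.08. Acacb (0.13 ± 0.09), Acaca (0.09 ± 0.17) and Acly (0.00 ± 0.12, 95% interval -0.27 to 0.28) were not lower in the fit.

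**Figure D3:**
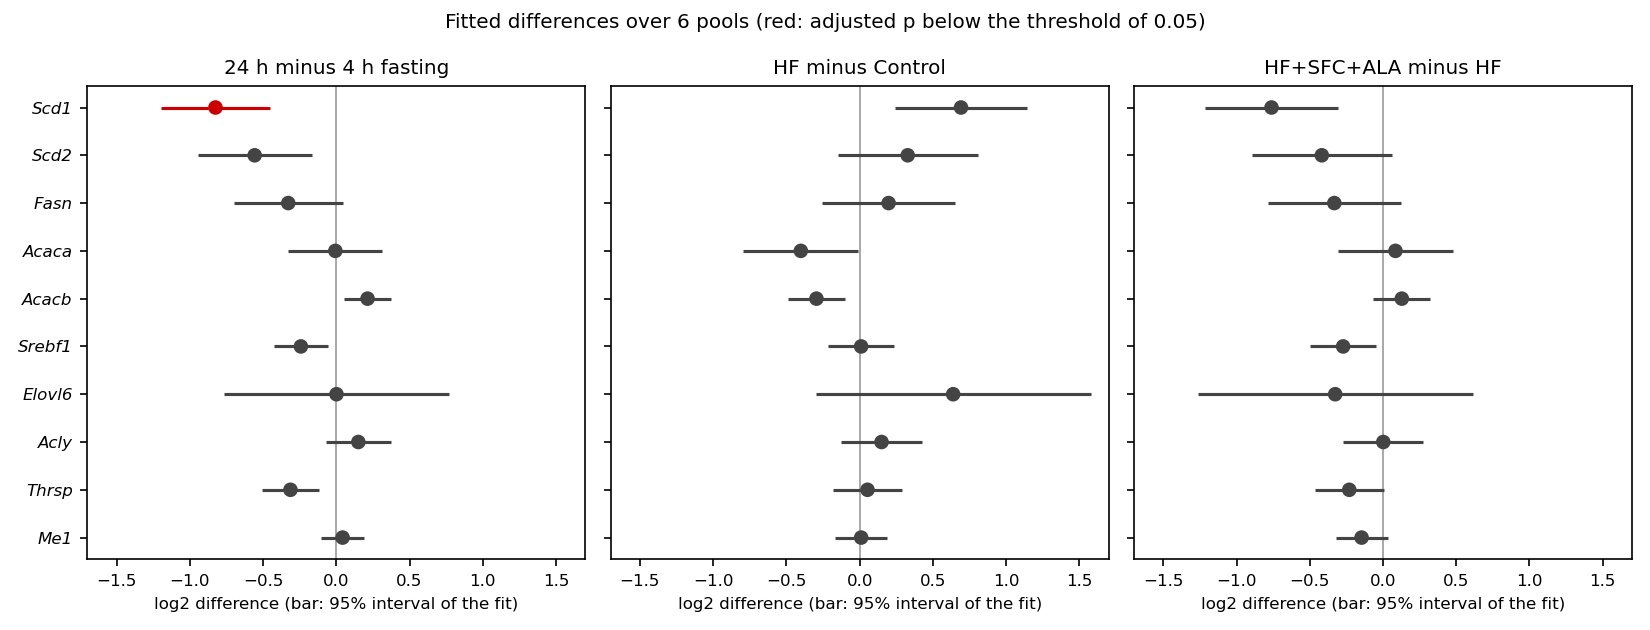
Fitted log2 differences of the 10 genes (points) with 95% intervals of the limma fit over 6 pools (bars), for 24 h minus 4 h of fasting, HF minus Control and HF+SFC+ALA minus HF; red marks an adjusted p under 0.05. Scd1 in the fasting comparison (-0.83) is the single red point, and the Elovl6 bars are the longest.

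Other probe sets of the same genes gave a partial check. Of the 25 probe sets 16 were above the filter, 6 of them not used above, and they kept the sign of the brighter probe set in 4 of 6 cases for fasting, 5 of 6 for HF against Control and 3 of 6 for the supplement. The dimmer Scd1 probe set had signals of 141, 207 and 146 at 4 h and 92.2, 138 and 100.7 at 24 h. Its fasting difference of -0.58 was even across the diets (-0.61, -0.59 and -0.54), unlike that of the brighter one, and it gave 0.57 for HF against Control and -0.48 for the supplement. A further Scd2 probe set gave -1.12, 1.23 and -0.50 in the 3 comparisons, with its Control value at 24 h (20.3) under the floor of 26.4, and a further Thrsp probe set -0.27, 0.24 and -0.29. The other Acly probe sets gave -0.01 and 0.28 for fasting and 0.09 and -0.14 for HF, and the other Me1 probe set -0.03, 0.13 and 0.03, so neither gene kept 1 direction.

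The wider pathway was described by 4 further lists. Beside their sign counts and those of the marker lists, 51.7% of all genes were positive for fasting, 50% for HF and 48.7% for the supplement. Every call in the 4 lists, as in the marker lists that follow, was lost with no filter on signal and without the intensity trend, where limma called 0 genes in all. Every call for HF was also lost without fasting time in the model, where limma called 0 genes for HF. With probe sets averaged it called 1 gene for HF. Among 22 measured regulators of lipogenesis, Mlycd was higher after 24 h of fasting (0.49 ± 0.08, adjusted p = 0.0166). It encodes malonyl-CoA decarboxylase, which undoes the carboxylase reaction. Its signals went from 3711, 3057 and 3798 to 5681, 4481 and 4691. Lpin1, a phosphatidate phosphatase and coregulator, was lower in HF (-0.44 ± 0.08, adjusted p = 0.0346). That call was lost when the 24 h pool of Control or HF, or either HF+SFC+ALA pool, was left out. The other 21 did not pass in each of these comparisons, and none of the 22 in that of the supplement, where Cebpa (-0.64 ± 0.21) and Pparg (0.53 ± 0.32) differed most. The median differences were -0.03, -0.08 and -0.01.

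Of 14 measured genes of elongation and desaturation above the filter, Hacd1, a dehydratase of the elongation cycle found in muscle, fell with fasting (-0.54 ± 0.07, adjusted p = 0.00978), a call lost without either HF+SFC+ALA pool (adjusted p = 0.0561 and 0.0584). Of the 14, 12 were negative for fasting, 11 positive for HF and 12 negative for the supplement, with medians of -0.10, 0.15 and -0.17 and no call in the last 2. Among genes that did not pass, Hacd2 (0.74 ± 0.19 and -0.61 ± 0.19) and the delta-6 desaturase Fads2 (1.34 ± 0.68 and -1.11 ± 0.68) differed most there; the HF+SFC+ALA signal of Fads2 at 24 h (19.4) was under the floor. Elovl2 and Elovl4 were at the floor in all pools.

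None of 12 genes that supply citrate, acetyl-CoA and NADPH passed in any comparison. Slc25a1, the mitochondrial citrate carrier, had signals of 162, 316 and 192 at 4 h and 132, 211 and 83.9 at 24 h. Its differences of -0.69 ± 0.22 for fasting, 0.83 ± 0.27 for HF and -1.03 ± 0.27 for the supplement had the signs of Scd1. Tkt, transketolase, stood at 0.63 ± 0.14 for HF (adjusted p = 0.0870) and -0.84 ± 0.14 for the supplement (adjusted p = 0.127), and Idh1 at 0.33 ± 0.08 for fasting. The medians of the supply genes were -0.02, 0.12 and -0.10. In sterol synthesis, the sister pathway under SREBP control, 1 of 15 genes rose with fasting, the squalene synthase gene Fdft1 (0.58 ± 0.07, adjusted p = 0.00684; 0.26 with its probe sets averaged, adjusted p = 0.514), and none passed elsewhere, where Dhcr7 (0.66 ± 0.34 for HF and -0.40 ± 0.34 for the supplement) had the widest differences, followed by Msmo1 (0.42 ± 0.22) and Lss (-0.32 ± 0.35). The list medians were -0.04, 0.05 and -0.02.

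Adipocytes are rich in lipogenic enzymes, and 11 of their markers were above the filter. In HF against Control 3 of 11 measured adipocyte markers rose, Lep (3.74 ± 0.30, adjusted p = 0.00275, with its Control pool at 24 h set to the floor), Adipoq (2.63 ± 0.21, adjusted p = 0.00275) and Cidec (1.91 ± 0.22, adjusted p = 0.00741), and 8 had positive differences. For the supplement 9 of 11 were negative and none passed, with Adipoq at -1.84 ± 0.21 (adjusted p = 0.0562) and Lep at -1.99 ± 0.30 (adjusted p = 0.0775). For fasting 1 rose, the lipase gene Pnpla2 (0.49 ± 0.08, adjusted p = 0.0213). Of the 11, 6 were positive and 5 negative for fasting, and the median was 0.00. The markers Retn (-1.52 ± 0.40, adjusted p = 0.0893), Lep (-0.99 ± 0.24, adjusted p = 0.0735), Cidec (-0.80 ± 0.18, adjusted p = 0.0566) and Adipoq (-0.68 ± 0.17, adjusted p = 0.0838) had lower signals after 24 h in all 3 diets without passing. These markers are named here because they were lower in every diet, as Scd1 was (-0.83 ± 0.16), so their likeness to Scd1 tests nothing. For Lep and Retn the Control pool at 24 h was set to the floor. Adipoq signals were 901, 4637 and 1941 at 4 h and 577, 4280 and 796 at 24 h in Control, HF and HF+SFC+ALA. Its fasting differences of -0.64, -0.12 and -1.29, like those of Lep (-0.80, -0.69 and -1.47), stood in the order of those of the brighter Scd1 probe set (-0.83, -0.26 and -1.38). Cidea shared that order but was higher at 24 h in Control and HF (0.50, 0.75 and -0.39). The other markers did not share it, among them Cidec (-0.70, -1.12 and -0.58) and Retn (-2.97, -0.43 and -1.15). Nor did the dimmer Scd1 probe set (-0.61, -0.59 and -0.54), and the share of all genes in this order was not counted. Pnpla2, Fabp4 and Lipe were positive in every diet. The summed signal of the 12 markers with a probe set was 81698 to 92322 in Control, 95714 to 102671 in HF and 88509 to 89236 in HF+SFC+ALA. Most of it was Car3 and Fabp4, of which Car3 is also made by muscle fibres. Lep and Retn were under the floor in the Control pool at 24 h, and Ucp1 in the HF and HF+SFC+ALA pools at 24 h. The part of adipocyte RNA in the Scd1, Elovl6 and Fasn values was not tested, and in pooled tissue fewer cells of a type and less RNA per cell cannot be told apart.

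**Figure D4:**
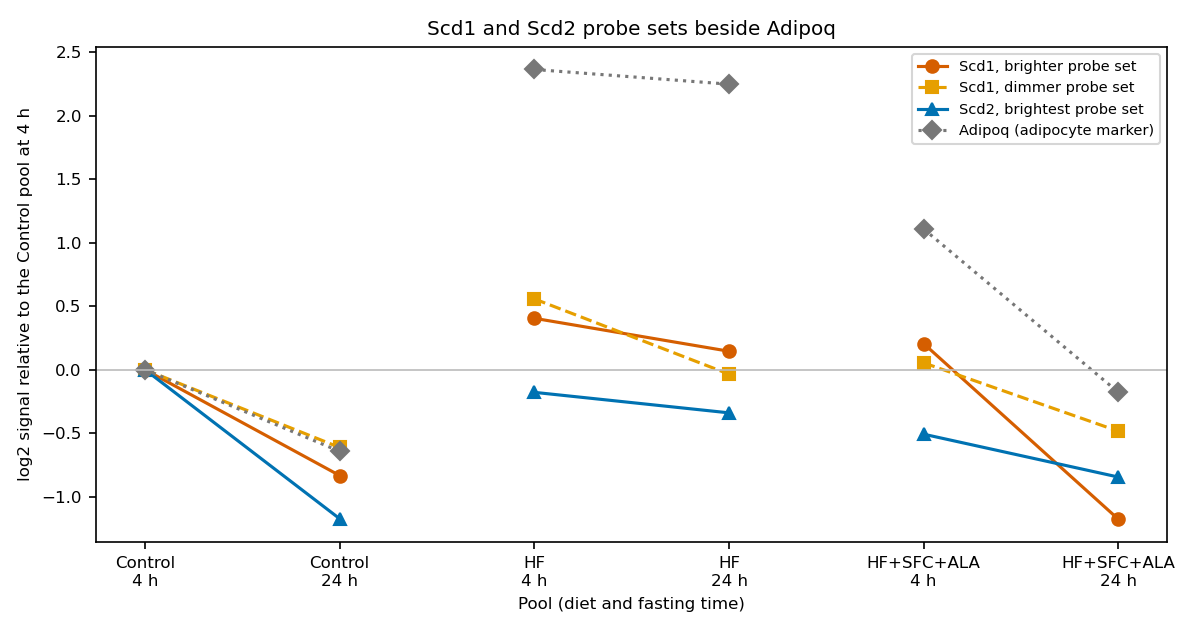
Log2 signal relative to the Control pool at 4 h (vertical axis) of both Scd1 probe sets above the filter, the brightest Scd2 probe set and Adipoq in each of the 6 pools (horizontal axis); lines join the 4 h and 24 h pools of a diet. The brighter Scd1 probe set and Adipoq have their widest gap in HF+SFC+ALA (-1.38 and -1.29). The dimmer Scd1 probe set has a like gap in every diet (-0.61, -0.59 and -0.54). Adipoq is 1 of 11 adipocyte markers, of which Lep and Cidea share its order of diets and the others do not.

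Markers of the other cell types were read in the same way. For HF against Control all 8 fibroblast markers were positive and 3 passed, Col1a1 (0.82 ± 0.11), Col3a1 (0.93 ± 0.14; adjusted p = 0.0510 without the HF pool at 24 h) and Dpt (0.53 ± 0.10; lost without any 1 of the HF or HF+SFC+ALA pools, adjusted p = 0.0510 to 0.102). All 9 macrophage markers were also positive with none passing (Mrc1 0.97 ± 0.20 and C1qb 0.87 ± 0.20). For the supplement 7 of 8 fibroblast markers (median -0.22) and 7 of 9 macrophage markers (median -0.14) were negative, with none passing, beside a median of -0.25 for the members; their part in the members' values was not tested. Col1a1 fell with fasting (-0.62 ± 0.09, adjusted p = 0.0129), a call lost without either HF+SFC+ALA pool (adjusted p = 0.0950 to 0.100). Schwann cells, which make the lipids of myelin, had 7 measured markers with none passing; all 7 were negative for the supplement, with a median of -0.32 and Mbp at -0.56 ± 0.10 (adjusted p = 0.158), and 5 were positive for HF (Egr2 1.02 ± 0.56, Mag -0.76 ± 0.39). The summed signal of the 8 with a probe set was 5187 to 5472 in Control, 6358 to 6539 in HF and 4589.9 to 4806 in HF+SFC+ALA. None of 7 endothelial and 14 skeletal muscle fibre markers passed in any comparison; the endothelial medians were 0.03, -0.12 and 0.17 and the fibre medians 0.04, -0.06 and -0.02. The widest fibre differences were 0.12 ± 0.07 (Myh1) for fasting, -0.17 ± 0.10 (Ckm) for HF and -0.07 ± 0.09 (Myh4) for the supplement.

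The genes whose log2 signal followed Scd1 most closely over the 6 pools were Actl7b (Pearson r = 0.976), Ankrd37 (r = 0.970) and Mamld1 (r = 0.966), among 1549 genes with a range of at least 1 log2 unit. Fasn was followed by Vasn (r = 0.960), Tmem176a (r = 0.956) and Ccdc74a (r = 0.955). With 6 pools, 22 genes reached an r of 0.9 with Scd1 and 9 with Fasn, and all values come from the same 6 arrays.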

How the data were processed

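Each of the 6 pools was measured on 1 expression array. The authors deposited 1 linear intensity per probe set; the submitters' processing notes name MAS5, without settings. After removal of 2% of probe sets at each end, the mean was 500.004 on every array, and median signals ran from 63.0 to 69.5. Of 45101 probe sets 64 controls were left out, and the other 45037 were named through the platform annotation where it gives 1 symbol (34945; 932 had several and 9160 none). Before log2, lower signals were raised to the 30th percentile (26.4).

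The 11526 genes were fitted with limma 3.58.1, diet plus fasting time, in R 4.3.3 (eBayes with an intensity trend, 7.27 prior degrees of freedom) and checked on simulated data. Alternatives are given in the closing section. Named beside the members are up to 4 genes per list and comparison that passed, or else the 2 with the widest differences (for the cell types, only some of these are printed), and the 3 genes closest in pattern to Scd1, the member of widest range, and to Fasn. Members, lists and tests were chosen with earlier results of these data known. Python 3.11.15, pandas 2.3.3 and matplotlib 3.10.9 drew the figures.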

Additional observations from a re-analysis of the deposited data

How the results depend on the processing

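The count of members called lower after fasting (1, Scd1) was 0 with quantile normalization (adjusted p = 0.0503), with no filter on signal (0.480), with averaged probe sets (0.0859), with the second probe set (0.213), without the intensity trend (0.302) and without diet in the model (0.218), and 0 to 1 when single pools were left out. Over all genes those 6 settings called 233, 0, 18, 125, 0 and 60 in place of 278 for fasting, 84, 0, 1, 64, 0 and 0 in place of 102 for HF, and 0, 0, 0, 7, 0 and 0 beside 0 for the supplement, which had 6 with a 65th-percentile filter. With single pools left out they called 59 to 455, 47 to 592 and 0 to 109. Members called higher in HF numbered 0 to 2, and lower with the supplement 0 to 1, when single pools were left out, beside 0 in the main fit; settings that kept every pool called none in either. Scd1 kept its sign in all 15 alternatives of each comparison, from -1.11 to -0.55 for fasting, 0.27 to 1.12 for HF and -1.19 to -0.34 for the supplement. Thrsp and Srebf1 also kept theirs for fasting (-0.32 to -0.20 and -0.30 to -0.16) and the supplement, Acaca and Acacb for HF in the 14 alternatives that tested them, and no called value reversed. Among the members' alternative values 25 changed sign, none of them a call. The additive fit already pairs pools by diet or by fasting time; leaving out that pairing is the setting without diet (or fasting time) in the model.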
